A study of Mytilus galloprovincialis with 16 samples.

Results

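The 4 arrays on which mantle RNA of female mussels at stage 2 of gonadal development was hybridized directly against mantle RNA at stage 1 were examined. They were chosen by their titles and are 4 of the 16 arrays of the series. The species is Mytilus galloprovincialis, a filter-feeding bivalve, sampled in Bizerta Lagoon, Tunisia. Stage 1, the early stage, was taken in November 2007, and stage 2, the development stage, in January 2008. Both groups were untreated wild animals, sexed and staged on mantle sections, and every RNA came from a single individual. The study's methods call the replicates biological, and the labels do not say which animal was hybridized on which array. The p-values below reflect how far these 4 arrays differ. The months differ along with the stage, and the 2 cannot be told apart.

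In mussels the gonad has no organ of its own. Its follicles grow into the mantle, where oogonia divide, enter meiosis and fill with yolk while the connective tissue around them is used up. The mantle also secretes the shell and holds muscle, blood cells and ciliated epithelium. An RNA extract of mantle is thus a mixture, and fewer cells of a type cannot be told apart from less RNA per cell.

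Each array held 1920 cDNA probes as 2 spots each. Every value below is a log2 ratio of stage 2 over stage 1, after background correction by normexp and loess normalization, averaged over both spots; a value of -1 is a level halved. On replicates 2 and 4 the stage 2 RNA was in Cy5 and on replicates 1 and 3 in Cy3. Both of 2 thresholds had to be passed for a change: a Benjamini-Hochberg adjusted p from limma under 0.05, and log odds for a change (B) above 0. Per channel, 82.2% to 91.7% of the probes exceeded the 95th percentile of the spots without DNA. The lowest share was that of the stage 1 channel of replicate 1. On that array 94 probes had signal above this percentile in neither channel but in both channels of every other array, against 3, 1 and 0 probes on replicates 2 to 4. None of the 94 is among the changes reported, but 9 belong to the gene lists, and their replicate 1 ratios hold no signal. The SD of the ratios over probes was 0.535, 0.653, 0.542 and 0.526 on replicates 1 to 4. The SD between the 2 spots of a probe was 0.175, 0.472, 0.2 and 0.396, so that replicates 2 and 4 were the noisier arrays. Across the 1920 probes, which are not independent replicates, the ratios of 2 arrays of the same dye orientation correlated with an r of 0.761 (replicates 1 and 3) and 0.64 (replicates 2 and 4). Between orientations r was 0.541 to 0.573. The number of arrays limits the precision.

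The files identify probes by clone. Names came from the study's list of genes changed in female mantle, paired with clones, so that 368 of the 1920 probes carry an identity and 208 of these a description. Descriptions are best matches to other species' proteins, are given as listed, and sometimes differ from the functional annotation of the same sequence. Names are thus limited to the study's own list of changed genes, and counts among them are no independent evidence of a direction. Of the 368, 13.9% were lower and 28% lower with the adjusted p alone, and these are the shares to set beside the counts of list members.

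Of the 1920 probes, 64 changed between the stages (3.33%). At stage 2, 55 were lower (2.86%) and 9 were higher (0.469%). In the same terms 0.258% of the 1552 probes without an identity were lower. The falls were also the larger changes: their median was -1.32 and 35 of them were at least 1 in size, whereas the median of the 9 rises was 0.62 and the highest was 0.71. All 64 had 1 sign on all 4 arrays, as had 738 of the 1920 probes (346 positive and 392 negative). The median of all probes was -0.03. With the adjusted p alone, 74 probes were higher (3.85%) and 145 lower (7.55%). With any 1 array left out, the count fell to 10, 21, 44 and 30 without replicates 1 to 4, all of them lower.

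The balance between rises and falls depended on the normalization. With each array centred on its median in place of loess, 59 probes were higher and 28 lower, so that rises made up 67.8% of the changes in place of 14.1%. They made up 43.3% with no background correction (29 higher and 38 lower), 29.2% with the spots kept separate (52 and 126), 33.8% with the adjusted p alone, and 0% with plain background subtraction (0 and 54). Loess and median centring differed most for bright probes. The median of the 50 brightest was 0.21 after loess and 0.96 after median centring, while that of the dimmest 480 was -0.05 and -0.20. Of the 64 probes, 59 kept their sign under median centring and 20 were also counted as changed there. Of 38 named probes that changed, 25 did not pass after median centring and 33 did not without replicate 1.

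**Figure D1:**
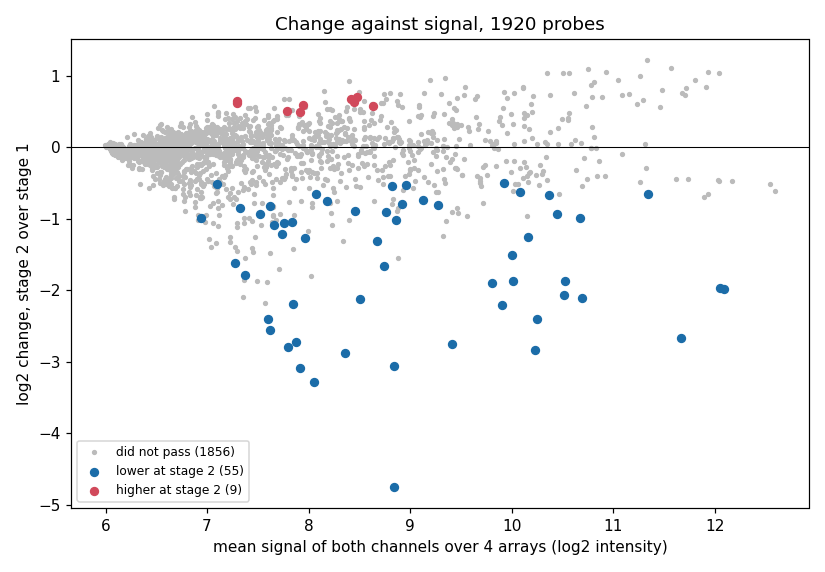
Log2 change of stage 2 over stage 1 (vertical axis) against the mean log2 intensity of both channels over 4 arrays (horizontal axis), 1 point for each of 1920 probes, with the 55 lower probes in blue, the 9 higher in red and the rest in grey. The falls reach -4.75, whereas the 9 rises lie between 0.49 and 0.71, and several bright probes near 1 did not pass.

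The largest fall was that of a cysteine rich protein 61 (AJ624499). In vertebrates cysteine rich protein 61 is a secreted protein of the CCN family that sits in the extracellular matrix and binds integrins. Its log2 ratios were -4.03, -4.92, -5.59 and -4.45 on replicates 1 to 4. It was thus far below 0 on every array, lowest on replicate 3, with little difference between the dye orientations (mean -4.81 with stage 2 in Cy3 and -4.68 in Cy5). The mean was -4.75 (SE 0.26, n = 4 arrays), a level 26.8-fold lower at stage 2 (adjusted p = 0.00479 from limma). Before normalization its spots had net signals of 1516, 1166, 3900 and 1464 in the stage 1 channels and of 33.5, 61, 80.5 and 34 in the stage 2 channels. The stage 2 signals were low but above that percentile on all 4 arrays. The probe changed under every alternative tried, each array left out in turn included, with means between -5.94 and -3.31.

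All 6 probes described as developmentally-regulated vdg3 were lower at stage 2, with a median of -2.48 beside -0.03 for all probes. They carry 6 different EMBL identifiers, but their shared name means that they may report transcripts of 1 gene or a few, and they are not counted as independent. AJ625851 had ratios of -3.18, -2.80, -4.62 and -2.54 on replicates 1 to 4 (mean -3.29, SE 0.35, adjusted p = 0.0112 from limma). Its net signals were 729, 339.5, 1673 and 388.5 at stage 1 and low, at 24.5, 57.5, 54.5 and 22, at stage 2. Those of AJ623429, AJ624337 and AJ625949 were as low at stage 2 (9 to 56.5), against 344.5 to 1573 for AJ625981 and AJ624482. The sizes of the falls with low signal are less certain. AJ623429 had -2.42, -2.86, -4.65 and -2.44 (mean -3.09, SE 0.40, adjusted p = 0.0189). Both ran together on the arrays and were lowest on replicate 3. So were the other 4, and the median of the 6 was -3.66 on replicate 3 against -2.08, -2.41 and -1.95 on replicates 1, 2 and 4. AJ624337 averaged -2.55 (SE 0.35), AJ625949 -2.40 (SE 0.29) and AJ625981 -2.20 (SE 0.30). AJ624482 fell least and most evenly, with -1.44, -1.46, -1.81 and -1.35 (mean -1.51, SE 0.10, adjusted p = 0.00519). After median centring it had -1.47, 0.18, -1.39 and -0.53 (mean -0.80) and did not pass, so that neither the evenness nor the call was kept. The direction of the median did not depend on replicate 3: without it the median was -2.09 and all 6 still changed. Without replicates 1, 2 and 4, and with scale normalization between arrays, only 1, 1, 3 and 1 of the 6 passed, with medians of -2.61 to -2.50 without replicates 1 and 2, -2.72 without replicate 4 and -2.60 with scaling, and 1 passed with no background correction (median -1.54).

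**Figure D2:**
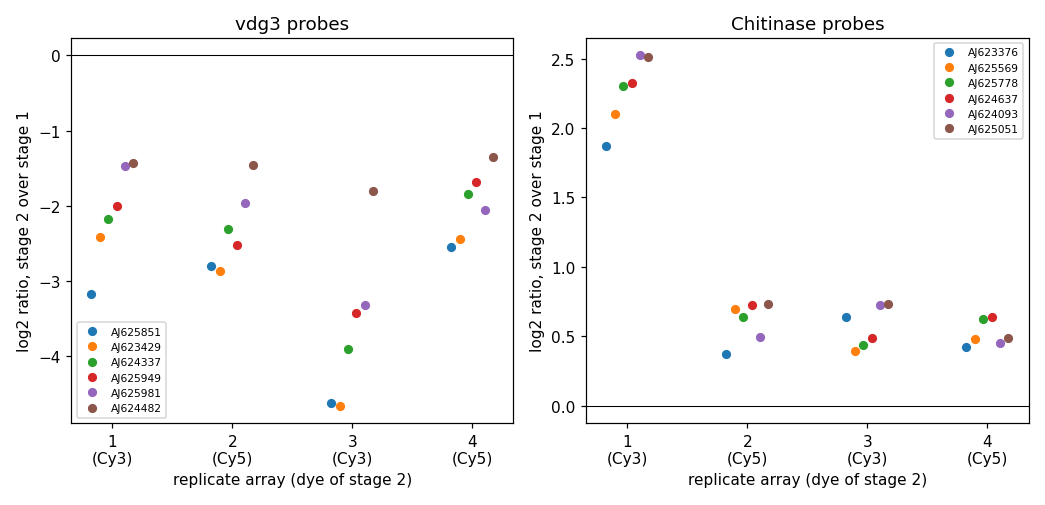
Log2 ratio of stage 2 over stage 1 (vertical axes) of the 6 vdg3 probes (left) and the 6 chitinase probes (right) on each of 4 replicate arrays (horizontal axes, with the dye of stage 2), 1 point per probe and array. The vdg3 probes lie below 0 on every array and lowest on replicate 3, and the chitinases lie between 1.87 and 2.52 on replicate 1 and between 0.37 and 0.73 on the other 3.

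Of 5 probes for digestive enzymes, which break down food proteins and polysaccharides, 2 were lower at stage 2 (2.86% of all probes and 13.9% of those with an identity were) and none higher. The larger fall was that of cg3355-isoform a (AJ624465), which carries a trypsin annotation. Its ratios were -2.31, -2.37, -4.01 and -2.48, with replicate 3 apart from the rest (mean -2.79, SE 0.31, adjusted p = 0.0119 from limma). It did not pass without replicates 1, 2 and 4, at -2.95, -2.93 and -2.90. Its net signals at stage 2 were low, at 35, 42.5, 48 and 14, against 422, 253, 1053 and 348.5 at stage 1. An endo-beta-glucanase (AJ623374), an enzyme that cuts cellulose, was lower by a small but even amount of -0.66, -0.51, -0.51 and -0.46 (mean -0.53, SE 0.07, adjusted p = 0.0206). After median centring its mean was 0.03. A trypsin-like enzyme (AJ624548) at -1.47 (SE 0.21, adjusted p = 0.0222) and an alpha-amylase (AJ624381) at -0.95 (SE 0.19, adjusted p = 0.0414) had a B below 0. The transmembrane serine protease (AJ624522) ran the other way, at 0.77 (SE 0.16, adjusted p = 0.0415), also with a B below 0. The median of the 5 was -0.95. After median centring 1 of the 5 passed as higher and 2 as lower, and the median was -1.10.

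Among genes of recognition and defence, 2 of 3 were lower, beside 13.9% of the probes with an identity. After median centring 1 of the 3 passed, and their median went from -1.02 to -0.48. Gram negative bacteria binding protein 2 (AJ625829), a relative of insect proteins that bind microbial cell walls, had ratios of -1.40, -2.03, -2.35 and -1.34 (mean -1.78, SE 0.20, adjusted p = 0.0112 from limma). It did not pass without replicate 1 or 2, at -1.91 and -1.70. A fibrinogen C domain containing protein (AJ625799), of a domain that molluscan lectins use to bind sugars, had -1.12, -0.97, -1.0 and -0.98 (mean -1.02, SE 0.07, adjusted p = 0.00519). Its 4 values lay close together after loess, but after median centring its mean was -0.48 and it did not pass. Transcription factor rel 1 (AJ623779), of the NF-kappa B family, was at -0.32 (SE 0.07, adjusted p = 0.0475) with a B below 0.

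The extracellular matrix list of 5 had 2 falls, those of cysteine rich protein 61 and the fibrinogen C domain protein. With the adjusted p alone 3 were lower. The third was cg6953-isoform a (AJ624307) at -1.175 (SE 0.21, adjusted p = 0.032 from limma, B = -1.06). A matrilin-4-like protein (AJ624361) stood at the other end, with ratios of 2.65, 0.69, 0.57 and 0.46 (mean 1.09, SE 0.40, adjusted p = 0.142). After median centring 1 of the 5 passed as higher and 1 as lower, and the median of the list was -0.48. Of 5 byssus proteins and collagens, which make the attachment threads and the connective tissue, a collagen alpha-1 chain (AJ626467) was lower, with -0.70, -0.73, -0.42 and -0.76 (mean -0.65, SE 0.09, adjusted p = 0.0206). The other 4 lay between -0.40 and -0.05 and did not pass. Of 4 probes listed under muscle, heavy polypeptide 1 isoform 3 (AJ625475) was lower (-0.97, -0.72, -0.81 and -0.70 on replicates 1 to 4, with a mean of -0.80, SE 0.08 and adjusted p = 0.0112). Its annotation is that of a microtubule motor with a dynein heavy chain domain and not that of a muscle myosin. None of the other 3 muscle probes passed, although 2 of the 4 were lower with the adjusted p alone. Uncoordinated family member unc-89 (AJ624863) averaged -0.58 (SE 0.09, adjusted p = 0.0233 from limma, B = -0.17). Kyphoscoliosis isoform cra_c (AJ625425) averaged -0.69 (SE 0.17, adjusted p = 0.0617). Both were negative on all 4 arrays. The median of the 4 was -0.64, and the sarcoplasmic calcium-binding protein (AJ623579) was at 0.09 (SE 0.09, adjusted p = 0.583). With the authors' ratios or loess over all spots 2 of the 4 passed, against 0 after median centring or scale normalization between arrays. The collagen and heavy polypeptide probes did not pass after median centring, at -0.27 and -0.22. The falls were 40% of the extracellular matrix list, 20% of the byssus and collagen list and 25% of the muscle list. Of the probes with an identity 13.9% were lower, and 28% with the adjusted p alone.

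Of the 44 probes for cytosolic ribosomal proteins, 4 were lower and none higher at stage 2, and 12 were lower with the adjusted p alone. These are 9.09% and 27.3% of the list, beside 13.9% and 28% of the probes with an identity. Their median was -0.31 after loess but 0.33 after median centring, where 1 was higher and none lower, so that the direction of the list as a whole was not settled. Ribosomal protein L23a (AJ626199), of the large subunit, had the lowest mean of the 44. Its ratios were -2.55, -2.29, -2.07 and -1.34 (mean -2.06, SE 0.21, adjusted p = 0.0112 from limma), and after median centring it was at -1.35 without passing. Ribosomal protein S27-like (AJ626374) averaged -0.99 (SE 0.13), ribosomal protein L10 (AJ625604) -0.74 (SE 0.09) and the QM-like protein (AJ625546), QM being another name of L10, -0.63 (SE 0.07). After median centring these 3 were at -0.25, -0.16 and 0.05. The highest member was ribosomal protein L7 (AJ624878), with 1.32, 0.62, 0.48 and 0.43 (mean 0.72, SE 0.17, adjusted p = 0.0536).

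The 11 translation initiation and elongation factors, which start protein synthesis and move the ribosome along, were all at a positive mean, between 0.30 and 0.74, and 10 of them were positive on every array. The other, elongation factor 1 alpha 1 (AJ624922), is the lowest of these means and had no signal on replicate 1. None passed both thresholds. With the adjusted p alone 3 were higher (3.85% of all probes and 11.7% of those with an identity were). Elongation factor 2 (AJ624248), which translocates the ribosome, had 0.82, 0.39, 0.54 and 0.44 (mean 0.55, SE 0.10, adjusted p = 0.032 from limma, B = -1.03). Elongation factor-1 alpha (AJ625505), which brings aminoacyl-tRNA to the ribosome, had 1.58 on replicate 1 and 0.43 to 0.50 on the rest (mean 0.74, SE 0.22, adjusted p = 0.0917). Another elongation factor-1 alpha probe (AJ625361) averaged 0.57 (SE 0.12, adjusted p = 0.0486 from limma, B = -2.13). The median of the 11 was 0.80 on replicate 1 and 0.33 to 0.44 on the other 3 arrays. After median centring it was 1.13, and 3 passed both thresholds.

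The mussel's mitochondrial DNA codes for subunits of the respiratory chain, among them cytochrome b, cytochrome oxidase subunits and NADH dehydrogenase subunits. Of the 19 probes listed as mitochondrially encoded, 4 were lower at stage 2 and none higher. These 4 are 21.1%, beside 13.9% of the probes with an identity and 2.86% of all. The median of the 19 was -0.52 beside -0.03 for all probes, and 9 were lower with the adjusted p alone. Of the 19, 15 are clones that share the identifier of the whole mitochondrial genome, and the part of it that each covers was not looked up. Whether these 15 report respiratory chain transcripts is thus not known. The lowest was clone Myt01-019B03, with -1.96, -1.88, -1.71 and -2.07 (mean -1.90, SE 0.09, adjusted p = 0.0034 from limma), which had the smallest adjusted p of any named probe. Clones Myt01-019B04 and Myt01-019B02 averaged -1.25 (SE 0.13) and -0.80 (SE 0.09). Cytochrome b (AJ624838), of complex III, had -0.89, -1.10, -0.73 and -1.02 (mean -0.94, SE 0.09, adjusted p = 0.011). Another cytochrome b probe (AJ624584) averaged -0.80 (SE 0.12, adjusted p = 0.0249 from limma, B = -0.36) and did not pass.

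The mitochondrial probes did not move as 1 group. NADH dehydrogenase subunit 5 (AJ623584), of complex I, was at 0.12, 0.39, 0.12 and -0.18 (mean 0.11, SE 0.11, adjusted p = 0.54), and clone Myt01-019B06 was at 0.04. Clones Myt01-019A04 and Myt01-019A06 had no signal on replicate 1, and over the other 3 arrays they averaged -0.87 (SE 0.19) and 0.02 (SE 0.10). The median of the list was 0.03 after median centring, where none passed both thresholds. Of 6 respiratory chain and ATP synthase subunits coded in the nucleus, none changed. Their median was 0.22, from the NADH dehydrogenase beta subunit (AJ516388) at -0.48 (SE 0.14, adjusted p = 0.0813) to cytochrome c oxidase subunit IV (AJ624079) at 0.36 (SE 0.11, adjusted p = 0.0944). Cytochrome c (AJ624894) and an ATP synthase beta subunit (AJ625661) had no signal on replicate 1. Over the other 3 arrays they averaged 0.32 (SE 0.16) and 0.12 (SE 0.11), and with such ratios left out the median of the 6 was 0.26.

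One of the largest falls was listed with the mitochondrial carriers. The probe is described as sjchgc01393 protein (AJ624131), and its annotation names transport and the mitochondrion but no carrier family, so that its place among the carriers is uncertain. It had -3.44, -2.85, -3.05 and -1.70 (mean -2.76, SE 0.29, adjusted p = 0.0112 from limma). Replicate 4 was the least low, and the probe did not pass without replicates 1, 2 and 3 (-2.53, -2.73 and -2.66) or after median centring (-2.15). An undescribed probe, AJ624348, followed it within 0.193 on every array (-3.53, -3.04, -3.05 and -1.73). The other 2 carriers, the mitochondrial phosphate carrier (AJ624083) and the adenylate translocator (AJ624842), which imports phosphate and exchanges ADP for ATP respectively, were at 0.42 (SE 0.11, adjusted p = 0.0655) and 0.22 (SE 0.10, adjusted p = 0.22). Neither passed.

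Outside the lists, 6 described probes were lower, of which lethal giant larvae homolog 2 is given with the Q-PCR probes. Probe AJ625043 (mflj00348 protein) averaged -1.99 (SE 0.22), and the undescribed AJ625892 ran within 0.083 of it on each array. Another probe described as mflj00348 protein (AJ624130) averaged -1.24 (SE 0.28, adjusted p = 0.0494 from limma, B = -2.215) and did not pass. On replicate 1 its net signals were 20.5 at stage 1 and -1 at stage 2. Delta-n p63, p73-like protein (AJ625243), a transcription factor of the p53 family, had -2.24, -2.34, -1.90 and -0.98 (mean -1.87, SE 0.24, adjusted p = 0.0189 from limma). It did not pass without replicates 1, 2 and 3 (-1.74, -1.71 and -1.86), nor under 5 of the processing alternatives, among them median centring (-1.11). In female digestive gland the study's Q-PCR of this gene ran opposite to its array trend. The paper points to the several splice variants of the gene and calls for further study. The ependymin related protein 1 (AJ516442) was lower at -1.02, -1.57, -1.41 and -1.07 (mean -1.27, SE 0.12, adjusted p = 0.011). The probe described as a myc homolog (AJ624437), whose annotation includes astacin protease activity and the extracellular region and no transcription factor term, averaged -0.89 (SE 0.10, adjusted p = 0.0112). A protocadherin gamma (AJ625806), a cell adhesion protein, averaged -0.75 (SE 0.07, adjusted p = 0.011). Of the 6, the ependymin related protein alone also passed after median centring, at -0.95. Besides these, 27 falls had no description. The largest were AJ624432 (mean -3.05, SE 0.27), AJ624699 (mean -2.88, SE 0.22) and AJ624348 (mean -2.84, SE 0.30).

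**Figure D3:**
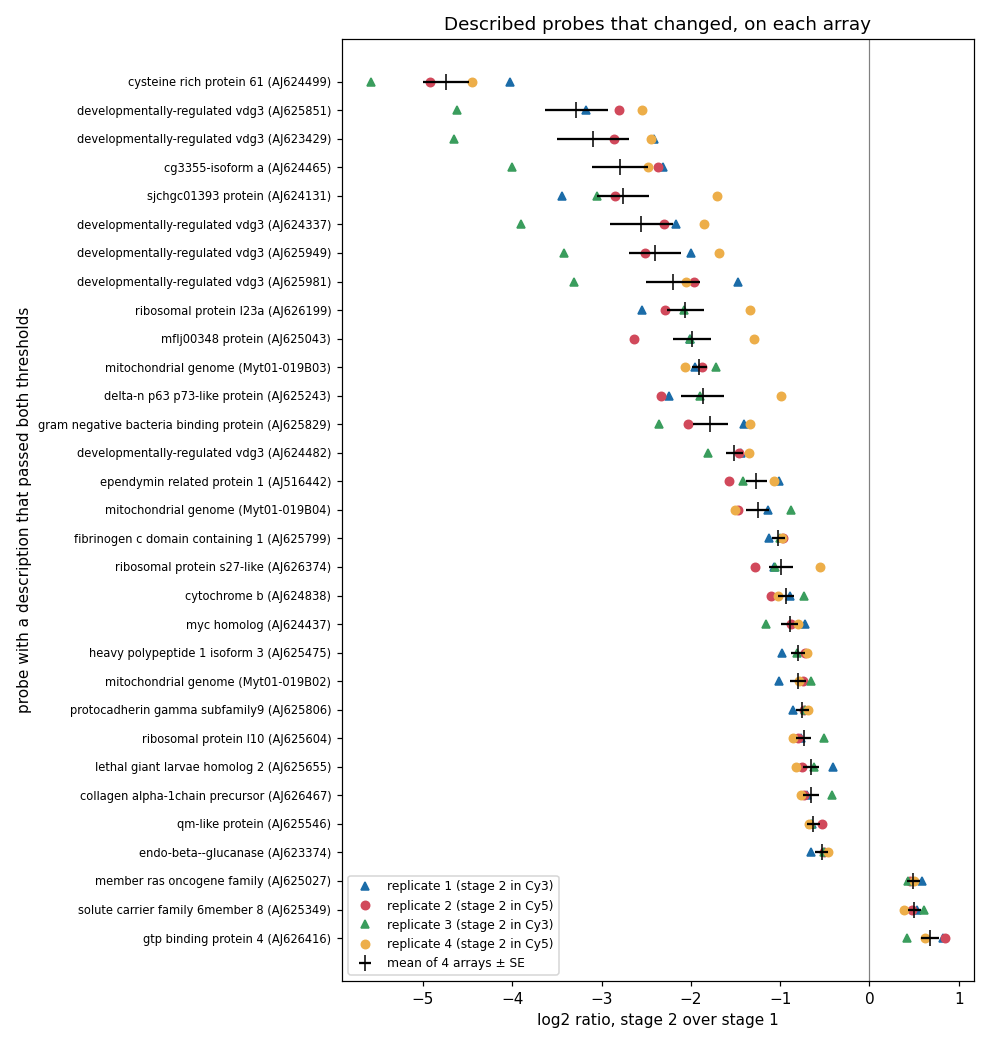
Log2 ratio of stage 2 over stage 1 (horizontal axis) of the 31 described probes that changed (vertical axis), with each of the 4 arrays as a coloured point (triangles, stage 2 in Cy3; circles, stage 2 in Cy5) and the mean ± SE in black. Falls run from -4.75 for cysteine rich protein 61 to -0.53 for the endo-beta-glucanase, against 3 rises of 0.49 to 0.68.

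The arrays differed in which probes were lowest on them. Among the 35 falls of at least 1, replicate 3 was the lowest array for 19 and replicate 4 the least low for 18. In the vdg3 probes, cg3355 and gram negative bacteria binding protein 2 replicate 3 was lowest. In sjchgc01393, ribosomal protein L23a, mflj00348 and delta-n p63 replicate 4 was the least low. Over all 1920 probes, 27 stood at least 1 log2 unit above the other 3 arrays on replicate 1, against 0, 1 and 2 on replicates 2 to 4. Conversely, 55 probes stood that far below the others on replicate 2, 17 on replicate 3 and 25 on replicate 4, against 1 on replicate 1. Replicates 2 and 4 also had the larger SD between duplicate spots (0.472 and 0.396). Of the 55 on replicate 2, none changed and 2 had a description.

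Only 3 of the 9 rises had a description. GTP binding protein 4 (AJ626416), whose yeast relative takes part in making the large ribosomal subunit, had 0.82, 0.84, 0.43 and 0.63 (mean 0.68, SE 0.10, adjusted p = 0.0218 from limma). Another probe with the same description (AJ623860) did not pass both thresholds. Solute carrier family 6 member 8 (AJ625349), a creatine transporter in vertebrates, had 0.53, 0.48, 0.61 and 0.39 (mean 0.50, SE 0.07, adjusted p = 0.0222, B = 0.006). A member of the ras oncogene family (AJ625027), a small GTPase, had 0.59, 0.45, 0.44 and 0.50 (mean 0.49, SE 0.07, adjusted p = 0.0218). All 3 were positive on every array and close between arrays, but the solute carrier sat at the threshold of B and did not pass with loess over all spots or with the authors' ratios. Of the undescribed rises the highest was AJ625487 at 0.71 (SE 0.10, adjusted p = 0.0213). None of the 9 passed with any 1 array left out, and the 3 described ones had a B below 0 when ratios without signal were left out.

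The chitinases had the highest positive means of any list but did not pass. Chitinases cut chitin, which molluscs use in the shell matrix and meet in their food. All 6 probes were positive on all 4 arrays. They share a name and had similar ratios on each array, and they are not counted as independent. Chitinase 1 (AJ625051) had 2.51, 0.73, 0.73 and 0.49 (mean 1.11, SE 0.36, adjusted p = 0.107 from limma). Chitinase AJ624093 had 2.52, 0.49, 0.72 and 0.45 (mean 1.05, SE 0.38, adjusted p = 0.14), and the other 4 averaged 0.82 to 1.04. Replicate 1 alone held the large values, between 1.87 and 2.52, and the other 3 arrays lay between 0.37 and 0.73. The 50 brightest probes, to which all 6 belong, had medians of 0.73, 0.14, 0.06 and 0.09 on replicates 1 to 4. Higher values on replicate 1 were thus not confined to the chitinases. The median of the 6 was 1.02, and 0.56 without replicate 1.

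Median centring moved the median of these 6 probes more than that of the vdg3 probes. The background correction moved the vdg3 median more. It was -3.79 with plain subtraction and -1.54 with no correction, whereas the chitinase median was 0.96 in both settings. The chitinases ranked between 6 and 42 in mean signal among the 1920 probes, where loess and median centring differed most. After median centring, chitinase 1 had 2.13, 2.60, 1.27 and 1.55 (mean 1.89). Replicate 1 no longer stood apart, and all 6 chitinases passed both thresholds, with a median of 1.83. The summed net signal of the 6 was 5200 to 13400 in the stage 1 channels and 27800 to 58100 in the stage 2 channels, before any correction for dye or array. The vdg3 probes ranked from 120 to 659 and had a median of -2.31 after median centring, where 4 of the 6 passed.

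**Figure D4:**
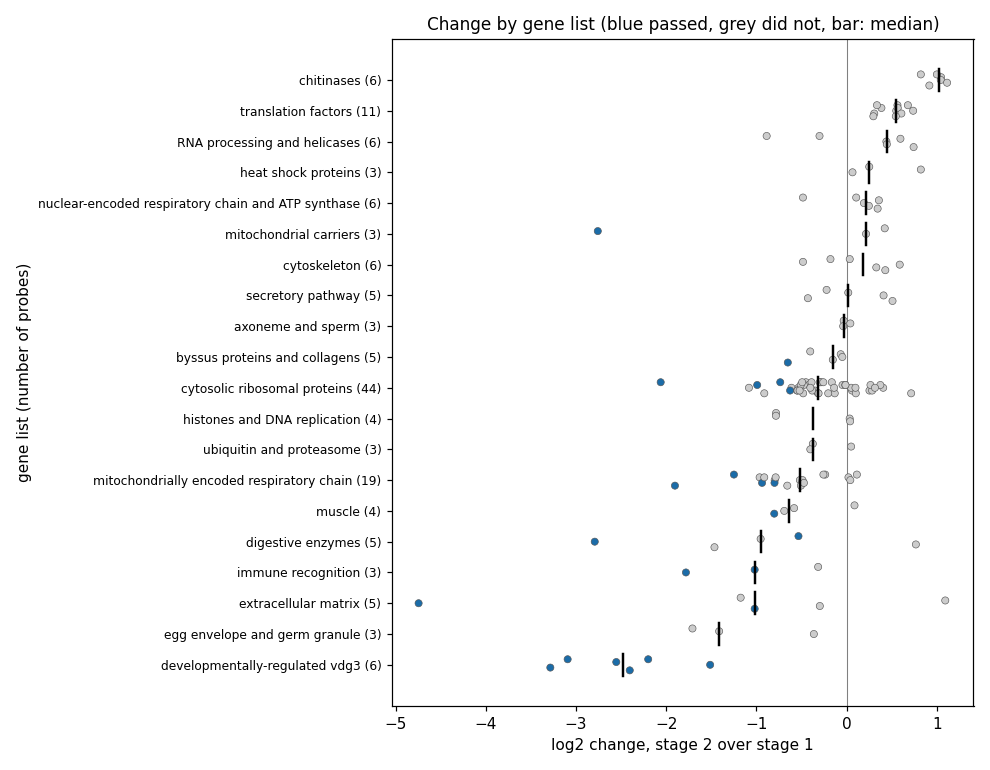
Log2 change of stage 2 over stage 1 (horizontal axis) of the members of 20 gene lists (vertical axis, number of probes in brackets), with members that passed both thresholds in blue, the others in grey and the median as a bar. The vdg3 median of -2.48 is the lowest and the chitinase median of 1.02 the highest, although no chitinase passed.

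The egg envelope and germ granule list was used to mark the female germ line. Its zona pellucida domain proteins build the coat of the egg, and P-granule proteins belong to germ granules in Caenorhabditis elegans. The annotation of the P-granule probe names receptor activity and protein binding but no germ granule, so that its place in the list is uncertain. None of the 3 passed both thresholds. The P-granule associated protein (AJ623653) had -2.45, -1.78, -1.75 and -0.86 (mean -1.71, SE 0.25, adjusted p = 0.0229 from limma, B = -0.103), and it passed when ratios without signal were left out of the fit to all probes. One vitelline envelope zona pellucida domain protein (AJ625872) had -0.85, -2.34, -0.89 and -1.58 (mean -1.41, SE 0.27, adjusted p = 0.0394), and the other (AJ625914) averaged -0.36 (SE 0.15, adjusted p = 0.199). All 3 were negative on all arrays and above the empty spots in all 8 channels. The summed net signal of the list was 600 to 1030 in the stage 1 channels and 240 to 660 in the stage 2 channels. Mantle gene 8 (AJ624733) was at 0.72 (SE 0.13, adjusted p = 0.032, B = -1.03). The 3 axoneme and sperm probes, a list used to mark ciliated cells or sperm, lay between -0.04 and 0.04. Their summed net signals were 254 to 378 at stage 1 and 232 to 724 at stage 2. One of them, radial spokehead-like 3 (AJ624749), has an annotation that names the cilium but also iron binding and transport. The part of shifts in cell makeup in any of the changes was not tested.

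The remaining lists held no probe that passed in the fit reported. The 6 RNA processing genes had a median of 0.44, with 2 DEAD box helicases (AJ626065 and AJ624089) at 0.74 (SE 0.16) and 0.60 (SE 0.15) and small nuclear ribonucleoprotein D3 (AJ516404) at -0.89 (SE 0.24). Of 4 histone and replication genes, histone H2A.Z (AJ516582) averaged -0.78 (SE 0.16, B = -1.88, adjusted p = 0.0442 from limma) and the minichromosome maintenance component (AJ516412), part of the replicative helicase, at -0.78 (SE 0.23, adjusted p = 0.091). Histone H3 family 3B (AJ516600) was at 0.03 (SE 0.12) and the probe described as DNA ligase I (AJ624686) at 0.04 (SE 0.07). The annotation of AJ624686 names the nucleosome and its assembly and no ligase activity. The 6 cytoskeletal probes had a median of 0.18 and the 5 secretory pathway probes one of 0.02. After median centring 1 cytoskeletal and 1 secretory pathway probe passed as higher, with list medians of 0.76 and 0.63. So did 2 of the 6 RNA processing genes (median 1.03). Sec61 alpha (AJ624847) had no signal on replicate 1. Over the other 3 arrays it averaged 0.60 (SE 0.11, adjusted p = 0.0355 from limma) without passing both thresholds, against 0.41 with replicate 1 kept. The ubiquitin and proteasome median of -0.37 turned to 0.36 after median centring. The proteasome beta1 subunit (AJ516664) was at -0.37 (SE 0.17, adjusted p = 0.222).

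Of the genes for which the study designed Q-PCR assays, 5 have their oligonucleotides in the supplementary text and could be paired with a clone. The array clones were paired with names on their stage changes and not by sequence. The TaqMan probes are shown because they fix the transcript stretch that each Q-PCR assay detected. They are printed 5′ to 3′ in lower case, with no base marked, and where they lie on the cDNA was not determined.
Lethal giant larvae homolog 2 (AJ625655): ctccatgtgccctctgagtgaaacttgt
MAM domain containing 2 (AJ624502): agaggaccaacaccaacaacaatgactg
Heat shock protein 90 (AJ625621): aagtcctcgcttcctcagtctctcaaca
Elongation factor 1 alpha 1 (AJ624922): acaaactgtcgccgtaggagtcatcaaa
NADH dehydrogenase subunit 5 (AJ623584): acccttgtcacagtcttcttaacccacg

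Of these 5, lethal giant larvae homolog 2, a regulator of cell polarity, was lower on the arrays, with -0.41, -0.76, -0.62 and -0.82 (mean -0.65, SE 0.09, adjusted p = 0.0218 from limma). After median centring it was at 0.12. MAM domain containing 2 had -1.31, -1.47, -2.60 and -0.80 (mean -1.55, SE 0.29, adjusted p = 0.0374, B = -1.41), lowest on replicate 3 like the vdg3 probes. Heat shock protein 90, a chaperone of signalling proteins, had 1.69, 0.75, 0.31 and 0.54 (mean 0.82, SE 0.24, adjusted p = 0.0843), highest on replicate 1 like the chitinases. A second probe described as a 90-kDa heat shock protein (AJ625915) was at 0.07 (SE 0.09, adjusted p = 0.679), and heat shock protein 70 (AJ624615) at 0.25 (SE 0.10, adjusted p = 0.181). Elongation factor 1 alpha 1 had no signal on replicate 1, where its net signals were 7.5 and -5 against 1009 to 9865 on the other arrays. Its ratios on replicates 2 to 4 were 0.38, 0.52 and 0.48 (mean 0.46, SE 0.10, adjusted p = 0.0507 with such ratios left out). With replicate 1 kept the mean was 0.30 (SE 0.14, adjusted p = 0.242).

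**Figure D5:**
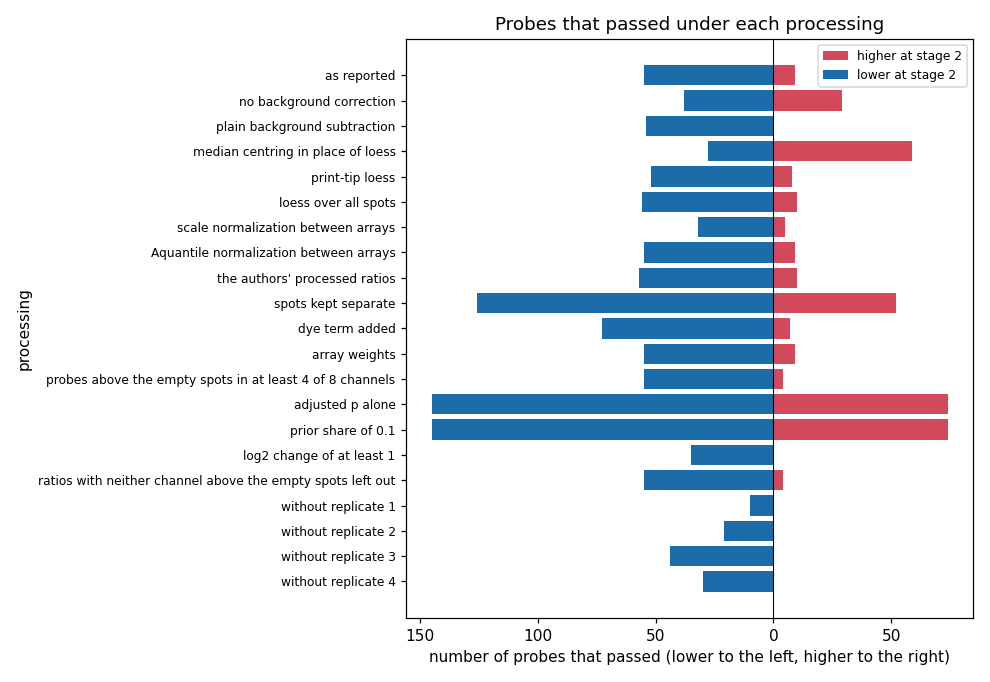
Number of probes that passed (horizontal axis, lower at stage 2 to the left in blue, higher to the right in red) under each processing (vertical axis). As reported, 55 were lower and 9 higher, whereas median centring in place of loess gave 28 lower and 59 higher.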

How the data were processed

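Intensities of 4 two-channel cDNA arrays were used; the other 12 arrays entered only the pairing of names. The authors scanned the arrays and deposited intensity values per spot, unnormalized: the spot's mean and its surroundings' median for each dye. A table of log2 ratios, which the authors obtained with limma (offset subtraction of the background, then loess; version not given in the sources used here), was deposited too. These log2 ratios run as stage 2 over stage 1, have column medians of -0.02 to 0, and were matched within 0.005 by normexp with an offset of 50 and loess over all spots. Of 4560 spots, 3840 held probes, 608 were empty and 112 were alignment spots. There were 0 columns of samples outside the series.

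Background was corrected by normexp (offset 50), loess was fitted with empty and alignment spots at weight 0, the 2 spots of a probe were averaged, and ratios were turned to stage 2 over stage 1. The 4 arrays were fitted with lmFit and eBayes (R 4.3.3, limma 3.58.1, 3 residual degrees of freedom, prior share of changed probes 0.01), and p-values were adjusted over 1920 probes. SEs come from the moderated fit. An exact sign-flip test over 4 arrays cannot go below p = 0.125. Each pair of arrays differed by more than duplicate spots did (variance ratio at least 1.39). No slide or scan date was used.

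Each of the 368 rows of the study's list of changed genes was matched to a clone on stage changes solved by least squares from the authors' ratios of all 16 arrays, to within 0.005 (largest difference 0.00303, closest other clone 0.0152). This used listed values for identity only. An EMBL identifier was held by 354 and a description by 208.

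Members and lists were chosen with earlier results of these data known. Named were the 8 largest described rises and falls, list members, the 3 largest undescribed rises and falls, and genes with Q-PCR oligonucleotides; the other described probes that changed, and AJ625892, were added after their values were seen. Alternatives covered background correction, normalization, duplicate spots, dye, weights, filters, thresholds and each array left out. Leaving out a probe's ratio on an array where neither channel exceeded the empty spots was added after seeing the data.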

Additional observations from a re-analysis of the deposited data

Results flagged for a closer look

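Among 102 named probes, 6 had 1 array far from the other 3 by Dixon's test, which by chance picks out about 1 in 20 groups. Probes that share a name, as the chitinases do, are not independent groups. On replicate 1, 4 chitinases stood apart: AJ624093 at 2.52 (the other 3 arrays 0.45 to 0.72), AJ625051 at 2.51 (0.49 to 0.73), AJ624637 at 2.32 (0.49 to 0.73) and AJ625778 at 2.30 (0.44 to 0.64). The matrilin-4-like protein AJ624361 stood apart on the same array, at 2.65 against 0.46 to 0.69. On replicate 3 it was the trypsin-annotated AJ624465, at -4.01 against -2.48 to -2.31. None of the 5 probes that stood apart on replicate 1 passed both thresholds, whereas AJ624465 did. The 50 brightest probes of the array had a median of 0.73 on replicate 1, against 0.06 to 0.14 on the others.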

How the results depend on the processing

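No paired analysis was possible because each ratio is already taken within an array and only 1 group of arrays entered the fit. In place of the 64 changes reported (9 higher and 55 lower), scale normalization between arrays gave 37 (5 and 32), of which 24 were among the 64. Keeping the spots separate gave 178 (52 and 126), with 60 of the 64 among them. Dropping the condition on B gave 219 (74 and 145), as did 0.1 for the prior share, and requiring a log2 change of at least 1 gave 35 (0 and 35). No background correction gave 29 higher, plain background subtraction 0 higher, and the filter on probes above the empty spots in at least 4 of 8 channels 4 higher, as did leaving out ratios with neither channel above the empty spots, an alternative chosen after seeing the data (59 changes). Median centring in place of loess gave 59 higher and 28 lower; there the QM-like protein AJ625546 (0.0523), the endo-beta-glucanase AJ623374 (0.0318) and lethal giant larvae homolog 2 AJ625655 (0.1212) turned positive without passing; the cause was not tested. With 1 array left out, 10 to 44 probes changed, 0 to 0 of them higher and 10 to 44 lower; 1 residual degree of freedom was lost in each. The counts of all changes stayed within 1.5 times under print-tip loess, loess over all spots, the authors' ratios, a dye term, array weights, the filter, no background correction, plain subtraction, median centring and the omission of ratios without signal. Aquantile normalization leaves ratios as they are by construction.

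Of 38 named probes that changed, 5 kept the call with each array left out in turn, and 2, cysteine rich protein 61 and AJ624699, under every alternative tried; 33 lost it without replicate 1 and 25 under median centring. With a dye term, 0 probes had a dye effect at an adjusted p under 0.05 in limma (222 at an unadjusted p under 0.05). Dim probes limit what can be seen: as few as 82.2% of the probes of a channel were above the empty spots.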
